A study of Homo sapiens with 4 samples.

Results

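The genes described here encode the SWI/SNF chromatin remodeling complex and other ATP-dependent remodelers. Members were chosen by a rule on gene symbols: symbols that start with SMARC, symbols of the ARID and CHD families, and 10 further genes named one by one (ACTL6A, PBRM1, BRD7, BRD9, DPF1, DPF2, DPF3, PHF10, INO80 and EP400). The rule found 42 of the 23228 genes counted, and 40 of these 42 were among the 14473 genes that passed the filter on low counts and were tested. RNA-seq was performed on SKOV3, an established human ovarian cancer cell line, from which cells with high aldehyde dehydrogenase activity (ALDH+ cells, the ovarian cancer stem cell fraction or OCSCs) had been sorted with the ALDEFLUOR kit and cultured as spheroids. The 2 vehicle samples received vehicle, and the 2 LY500307 samples received 5 µM LY500307, an agonist of estrogen receptor beta (ERβ), for 24 h. The comparison asked which transcripts the agonist altered in OCSCs, here for a single line and a single sorted fraction.

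Chromatin remodelers use ATP to slide, evict or exchange nucleosomes and so set which DNA is open to transcription factors, nuclear receptors among them. SWI/SNF complexes carry a single ATPase, SMARCA4 (BRG1) or SMARCA2 (BRM), on a core of shared subunits, and further subunits define the BAF, PBAF and noncanonical BAF (ncBAF) forms. ISWI enzymes space nucleosomes, CHD proteins pair the motor with chromodomains, and INO80-type enzymes exchange histone variants. Loss of the BAF subunit ARID1A is a known event in several kinds of ovarian carcinoma.

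The libraries held 28841701 to 34943882 reads on genes. The vehicle libraries resembled each other more closely than the LY500307 libraries did: the chi-square statistic per degree of freedom between replicates was 5.16 in vehicle and 42.5 in LY500307. LY500307 replicate 2 lay below replicate 1 for most remodeler genes, and also for most of the 71 tested partner subunits and other remodelers described below. Over those partners the median log2 difference from the vehicle mean was -0.03 in replicate 1 and -0.18 in replicate 2. The median absolute log2 gap between the 2 LY500307 samples was 0.25 over the 40 members and 0.22 over all genes tested, and the corresponding gaps between the vehicle samples were 0.05 and 0.11. The signed gap, replicate 2 minus replicate 1 of LY500307, had a median of -0.24 over the members and 0.01 over all genes. Group medians and fold changes below are therefore also given without it. The labels do not say that replicates were separate cultures, so p-values measure the spread between these samples, which may be technical. With 2 samples against 2, an exact two-sided permutation test of a single gene cannot go below p = 0.333, so all p-values below come from the edgeR quasi-likelihood fit across all genes.

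The labelled cells were checked against marker genes. EPCAM was present at 194 to 240 CPM (reads scaled to a fixed library total, here by TMM). ERBB2 was at 48.7 to 59.4 CPM and KRT18 at 23.5 to 31.8 CPM. However, PAX8 had 0 reads in every sample, and KRT19 and CDH1 had at most 2 and 4 reads. KRT8 was low as well, with 24 and 9 reads in vehicle and 16 and 33 reads in LY500307. The labels name SKOV3, and whether these marker levels match that line was not tested. The summed epithelial markers were at 284 to 294 CPM in vehicle and 283 to 330 CPM in LY500307, and 1 of the 4 tested, KRT18, was higher at an unadjusted p of 0.048. Of the fibroblast markers, 2 of 5 tested, COL1A1 and COL1A2, were higher with LY500307 at unadjusted p-values of 0.021 and 0.014, whereas both LY500307 samples lay below vehicle for DCN (log2 fold change -0.20) and LUM (-0.10) and PDGFRB overlapped. The summed fibroblast list was at 464 to 475 CPM in vehicle and 546 to 652 CPM in LY500307, nearly all of it these 2 collagens, which summed to 436 and 447 CPM in vehicle and 521 and 625 CPM in LY500307. The leukocyte list, with PTPRC at 0 to 4 reads and CD3E at 0 to 2 reads, was at 13.1 to 14.9 CPM in vehicle and 11.9 to 18.2 CPM in LY500307, nearly all of it CD68. The endothelial list was at 133 to 150 CPM in vehicle and 135 to 151 CPM in LY500307, nearly all of it KDR, with CDH5 at 0 or 1 reads. The 3 ALDH1A genes summed to 16.1 to 17.1 CPM in vehicle and 15.6 to 16 CPM in LY500307. The part that the fibroblast markers play in the remodeler results was not tested, and in bulk RNA fewer cells of a type cannot be told apart from less RNA per cell. Of the receptors, ESR1 had 0 reads in every library, where 3 reads would equal 0.0859 to 0.104 CPM of the unscaled totals, and ESR2, which encodes ERβ, had 7 and 8 reads in vehicle and 12 and 7 reads in LY500307.

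Promoters of 4 members on which the results turn are printed here, since LY500307 is an agonist of a DNA-binding receptor. Whether it acted through that receptor in these cells was not tested. The sequences are the 250 bases upstream of the RefSeq start on GRCh38.p14, written 5′ to 3′ on the gene's strand, whereas the reads were aligned to hg19. SMARCA4 (chr19:10960780-10961029, plus strand) and SMARCA2 (chr9:2015097-2015346, plus strand) are shown because the 2 alternative ATPase genes had very unequal mRNA levels. PHF10 (chr6:169724501-169724750, minus strand) had the smallest p among the members. SMARCA5 (chr4:143513452-143513701, plus strand) is one of the members with an estrogen response element half-site, printed in capitals.
SMARCA4: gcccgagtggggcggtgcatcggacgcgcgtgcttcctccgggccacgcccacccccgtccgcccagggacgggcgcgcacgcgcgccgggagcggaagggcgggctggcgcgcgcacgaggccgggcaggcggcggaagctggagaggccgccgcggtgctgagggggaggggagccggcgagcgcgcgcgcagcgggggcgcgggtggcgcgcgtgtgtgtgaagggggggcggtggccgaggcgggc
SMARCA2: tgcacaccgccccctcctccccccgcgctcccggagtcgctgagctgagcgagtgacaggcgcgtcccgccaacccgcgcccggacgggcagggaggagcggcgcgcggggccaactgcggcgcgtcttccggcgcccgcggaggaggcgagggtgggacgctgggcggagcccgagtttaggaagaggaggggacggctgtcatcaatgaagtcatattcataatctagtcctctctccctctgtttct
PHF10: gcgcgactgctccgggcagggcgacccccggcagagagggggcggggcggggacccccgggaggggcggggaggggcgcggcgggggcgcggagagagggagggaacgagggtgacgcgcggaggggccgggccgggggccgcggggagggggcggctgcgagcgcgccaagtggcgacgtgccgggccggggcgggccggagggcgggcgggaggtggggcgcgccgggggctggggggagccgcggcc
SMARCA5: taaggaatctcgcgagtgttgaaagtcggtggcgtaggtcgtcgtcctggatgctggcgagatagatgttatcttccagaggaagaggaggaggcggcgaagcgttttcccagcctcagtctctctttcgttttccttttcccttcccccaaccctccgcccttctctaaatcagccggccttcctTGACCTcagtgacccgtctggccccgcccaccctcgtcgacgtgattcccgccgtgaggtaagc
G and C made up 82.4% of the SMARCA4 window, 68.8% of the SMARCA2 window, 86.4% of the PHF10 window and 58% of the SMARCA5 window, with 44, 29, 39 and 20 CpG dinucleotides. Promoters of 33 of the 42 members were matched by symbol. The half-site AGGTCA, searched on both strands, was found in 2 of these 33 windows (6.06%), SMARCA5 and DPF3, and in 12.1% of all 27305 promoter windows of the same length. In SMARCA5 it lay 64 bases upstream of the start, on the opposite strand. The full element, searched as an inverted repeat of GGTCA (the half-site's last 5 bases) with 3 bases between the arms, was found in 0 of the 33 member windows and in 12 of all windows (0.0439%). These matches describe letters in a window and are not binding sites.

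Across the members, mRNA levels per kilobase of transcript ranged from 0.0015 (DPF3) to 139 CPM (SMARCA1) in vehicle. The highest were SMARCA1 (the ISWI ATPase SNF2L) at 139 ± 3.25 CPM per kilobase in vehicle (SD, n = 2), SMARCA4 at 108 ± 5.99 and CHD4, the NuRD ATPase, at 105 ± 0.903. SMARCA4 and CHD4 did not differ beyond the spread of SMARCA4. The order of these genes per kilobase rests on the length of each gene's canonical transcript. Not divided by length, the vehicle means were 681 CPM for CHD4, 602 CPM for SMARCA4 and 556 CPM for SMARCA1. Below these came the scaffold pair SMARCC2 and SMARCC1 at 66.4 ± 2.98 and 62.9 ± 1.53 CPM per kilobase. The lowest were DPF3, a histone-reading BAF subunit, with 1 read in vehicle replicate 2 and 0 in the other samples, ARID3C with 6, 3, 4 and 1 reads, and SMARCA2 at 0.157 ± 0.0742 CPM per kilobase. DPF3 and ARID3C were the 2 members that failed the filter. Per kilobase, SMARCA4 mRNA exceeded SMARCA2 mRNA 497-fold and 1079-fold in the vehicle samples and 580-fold and 722-fold in the LY500307 samples, so nearly all mRNA for the SWI/SNF ATPase was SMARCA4 in every sample. SMARCA2 rested on 17 to 37 reads per sample. Of the 40 tested members, 38 had more than 100 reads in every sample.

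**Figure D1:**
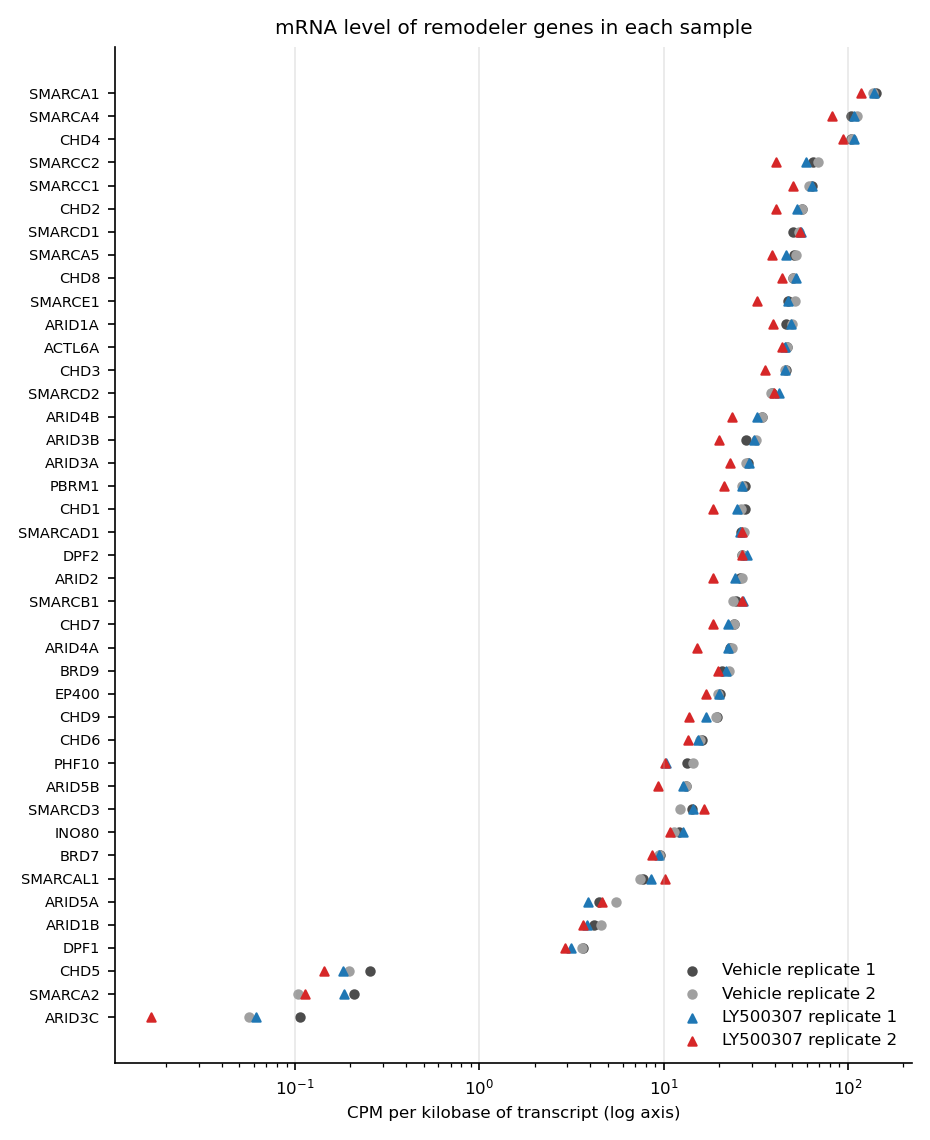
mRNA level of 41 remodeler genes in each of the 4 samples, as CPM per kilobase of transcript on a log axis, ordered by the vehicle mean. Circles are vehicle samples and triangles LY500307 samples. DPF3, with 1 read in all, is not drawn. SMARCA1, SMARCA4 and CHD4 lie at the top and CHD5, SMARCA2 and ARID3C lie apart at the bottom, and for most genes the red triangle, LY500307 replicate 2, is the leftmost point.

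After LY500307, 0 of the 40 tested members met the study's criteria for a changed gene, an unadjusted p below 0.05 with an absolute log2 fold change above 0.5, whereas 4.62% of all genes tested met them. By unadjusted p alone, 4 members were lower (PHF10, CHD9, SMARCC2 and SMARCA5), or 10% against 5.5% of all genes, and 0 were higher against 6.09% of all genes. Scaled by library totals alone, the counts over all genes moved from 796 lower and 882 higher to 593 and 1070, and those of the members from 4 and 0 to 3 and 0. With DESeq2, 3 members were below an unadjusted p of 0.05, each of them lower. Over all 14473 genes, 1430 were below it, 645 of them lower. After DESeq2's own adjustment, 0 members and 20 of all genes passed. After Benjamini-Hochberg adjustment in edgeR, 0 members passed, the smallest adjusted p being 0.422, and the share of all genes that passed was also 0%. The signs were uneven. The log2 fold change (LY500307 minus vehicle) was negative in 34 members (7240 of all genes tested) and positive in 6 (7233 of all genes). Its median over the members was -0.16, in a range of -0.47 to 0.30, and the median over all genes tested was -5.6e-05. Both LY500307 samples lay below both vehicle samples in 18 members (45%, against 24.4% of all genes), both lay above in 6 (15%, against 24.2%), and the groups overlapped in 16. The 95% interval of the fold change included 0 in 36 members and lay entirely within 0.5 of 0 in 20.

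**Figure D2:**
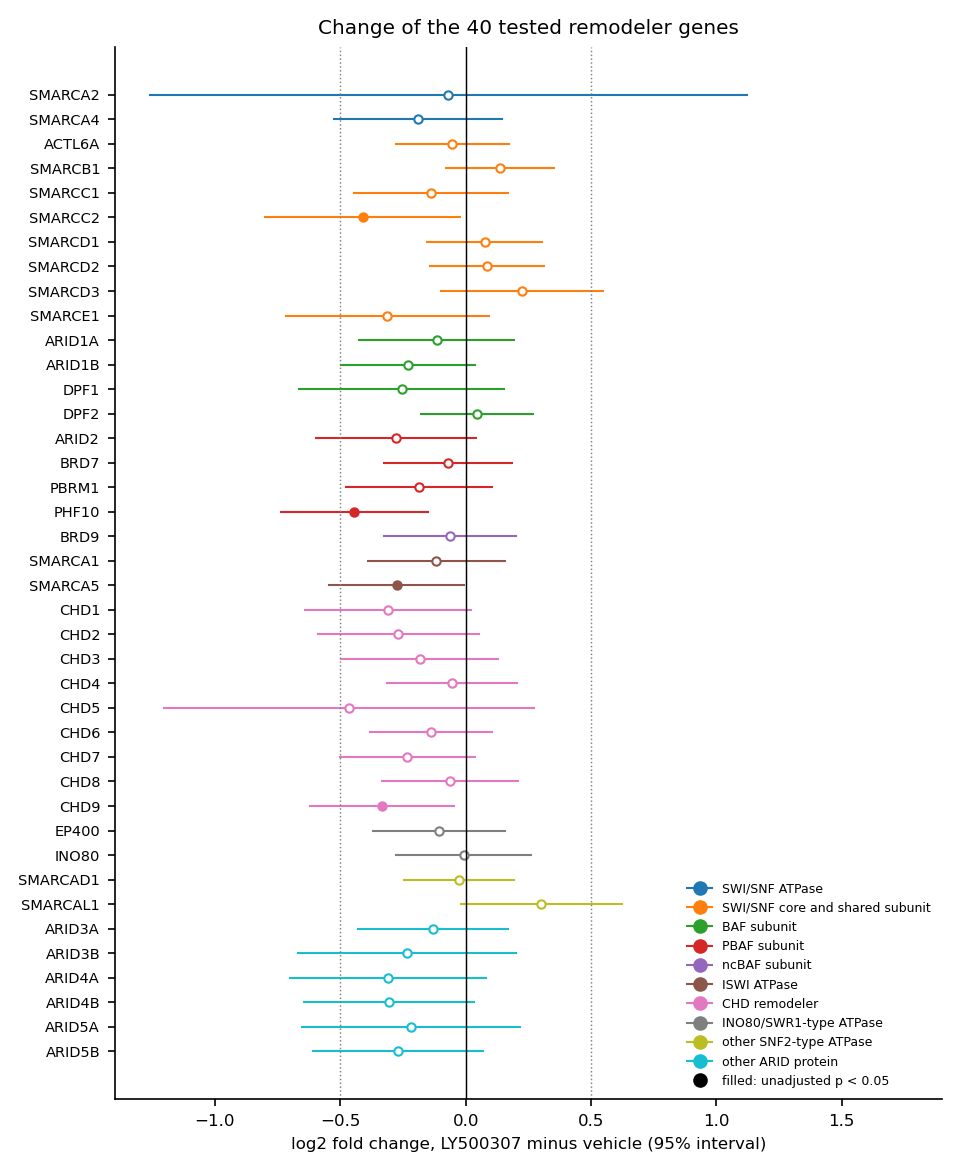
Log2 fold change (LY500307 minus vehicle) of the 40 tested remodeler genes with its 95% interval, from the edgeR fit on 2 against 2 samples, coloured by role. Filled points have an unadjusted p below 0.05, and dotted lines mark 0.5 in either direction. Most points lie left of 0, and the filled ones are SMARCC2, PHF10, SMARCA5 and CHD9.

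The size of this shift differed between the 2 LY500307 samples. Relative to the vehicle mean, the median over the members was -0.02 in replicate 1 and -0.31 in replicate 2, while the median over all genes was 0.0017 and 0.0020. Without LY500307 replicate 2, the fitted median was -0.02 and 23 of 40 members were negative. At an unadjusted p below 0.05, 4 members were then lower (8.14% of all genes were) and 1, SMARCB1, was higher (7.12% of all genes), and 0 met both criteria (2.37% of all genes). Without LY500307 replicate 1, the median was -0.31, 25 members were lower at that p (20.6% of all genes) and 2 were higher (19.8% of all genes). In that fit 7 members met both criteria (SMARCC2, SMARCE1, CHD1, ARID3B, ARID4A, ARID4B and ARID5B), against 13.3% of all genes. In these fits the single LY500307 sample is assumed to vary like the vehicle pair, the closer of the 2 pairs. Without vehicle replicate 1 or 2, the fitted median over the members was -0.16 and -0.15. Directly compared, LY500307 replicate 2 was below replicate 1 in 36 of the 40 members and in 7135 of all 14473 genes tested.

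**Figure D3:**
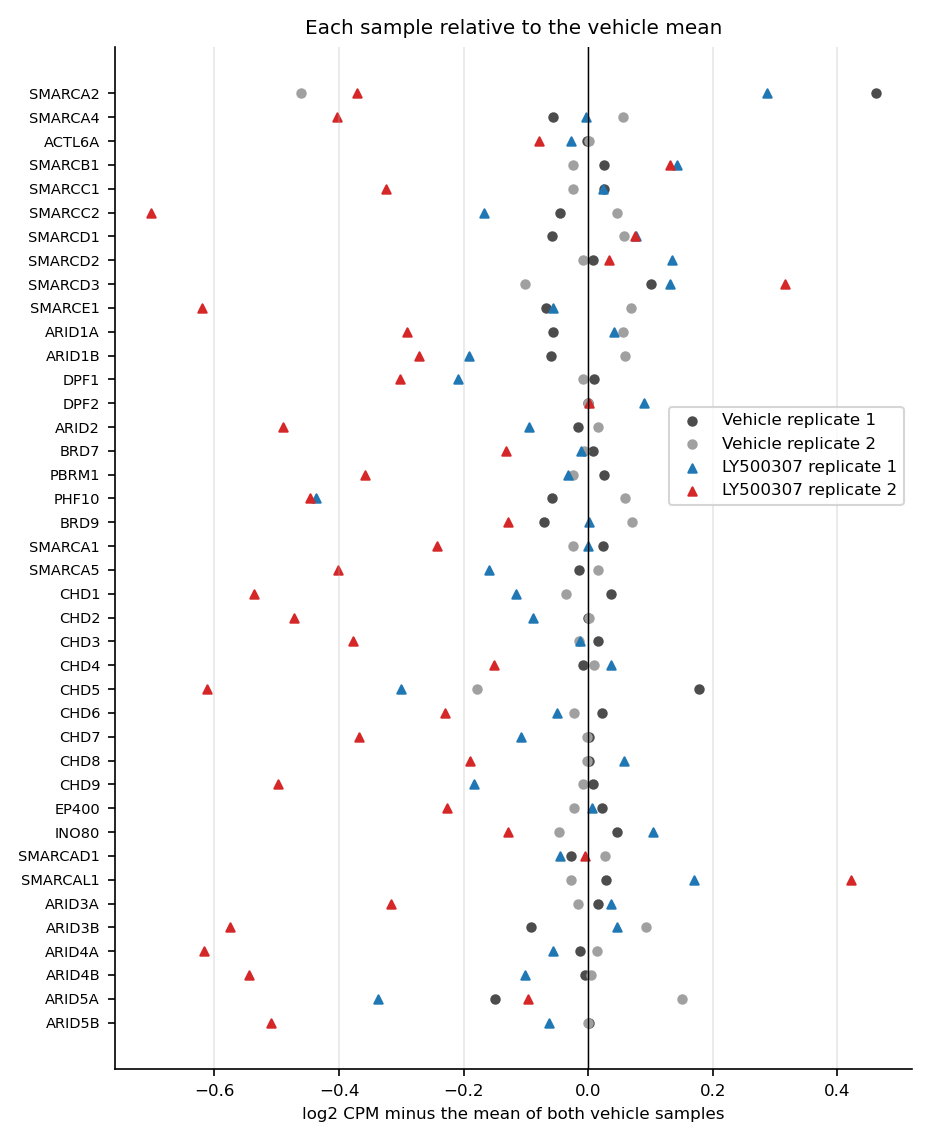
Log2 CPM of each sample minus the mean of the 2 vehicle samples, for the 40 tested remodeler genes in the order of their roles. Circles are vehicle samples and triangles LY500307 samples. The red triangles (LY500307 replicate 2) lie at a median of -0.31 and the blue ones (replicate 1) at -0.02, and for PHF10 the 2 triangles nearly coincide.

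The SWI/SNF ATPase mRNAs were not detectably different. SMARCA4 stood at 579 and 626 CPM in vehicle and 600 and 455 CPM in LY500307, so that replicate 1 lay within the vehicle range and replicate 2 below it. Its log2 fold change was -0.19 ± 0.15 (SE, n = 2 per group, 95% interval -0.53 to 0.14), and it was -0.0026 without LY500307 replicate 2. SMARCA2, at 1.20 and 0.598 CPM in vehicle and 1.07 and 0.650 CPM in LY500307, had a log2 fold change of -0.07 ± 0.51, with a wide interval of -1.26 to 1.12, and it was 0.24 without LY500307 replicate 2. Among the 8 core and shared subunits the median log2 fold change was 0.01, and 0.05 without LY500307 replicate 2. Both LY500307 samples were above vehicle in 4 of these 8 genes (24.2% of all genes) and below it in 2 (24.4% of all genes). SMARCC2 (BAF170), one of the paired scaffold subunits (GRCh37 chr12:56556143-56583351, minus strand), was at 327 and 349 CPM in vehicle and 301 and 208 CPM in LY500307. Both LY500307 samples were below vehicle, replicate 2 much further than replicate 1. The log2 fold change of SMARCC2 was -0.41 ± 0.17 (edgeR, unadjusted p = 0.041, adjusted p = 0.428), and it was -0.17 without LY500307 replicate 2 and -0.70 without replicate 1.

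PHF10 is the PBAF subunit whose PHD fingers read histone tails (GRCh37 chr6:170103998-170125662, minus strand). Of the 4 members at an unadjusted edgeR p below 0.05, it showed the most even difference. It was at 29.0 and 31.4 CPM in vehicle and 22.3 and 22.1 CPM in LY500307. Both treated samples were lower by nearly the same amount, with log2 differences from the vehicle mean of -0.44 and -0.45. The fitted log2 fold change of PHF10 was -0.44 ± 0.13 (95% interval -0.74 to -0.15, edgeR unadjusted p = 0.008, adjusted p = 0.422), and the unadjusted DESeq2 p was 0.009. Its unadjusted p was below 0.05 when either LY500307 sample was left out, but not when vehicle replicate 2 was left out, where the fold change was -0.38. Without vehicle replicate 1 the fold change of PHF10 was -0.50. PHF10 has a processed copy, PHF10P1, and 88.4% of the 50-base windows of its transcript occur in no gene elsewhere, and reads that align to both are in no count. The share was lower in ARID3B (79%) and BRD7 (83.5%), it was 93.4% in EP400, 94.4% in SMARCE1 and 96.1% in BRD9, and it was at least 99% in the other 36 members. In all 4 PBAF subunits (PHF10, ARID2, BRD7 and PBRM1) both LY500307 samples lay below both vehicle samples, an order found in 24.4% of all genes. Their median log2 fold change was -0.23, and -0.06 without LY500307 replicate 2. The order was narrow in BRD7, at 51.7 and 51.2 CPM in vehicle and 51.0 and 47.0 CPM in LY500307. The log2 fold change of BRD7 was -0.07 ± 0.11, and -0.0098 without LY500307 replicate 2. It was also narrow in PBRM1 (polybromo, which binds acetylated histones), at 221 and 213 CPM in vehicle and 212 and 169 CPM in LY500307. The log2 fold change of PBRM1 was -0.19 ± 0.13, and -0.03 without LY500307 replicate 2.

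The 4 tested BAF subunits (ARID1A, ARID1B, DPF1 and DPF2) had a median log2 fold change of -0.17, and of -0.07 without LY500307 replicate 2. In ARID1B and DPF1, which is named after its values were seen, both LY500307 samples were below vehicle. ARID1A was at 397 and 429 CPM in vehicle and 425 and 337 CPM in LY500307, with overlapping groups and a log2 fold change of -0.12 ± 0.13, which became 0.04 without LY500307 replicate 2. Its paralog ARID1B, which takes the same place in the complex, was at 43.5 and 47.2 CPM in vehicle and 39.7 and 37.5 CPM in LY500307. Its log2 fold change was -0.23 ± 0.12 (95% interval -0.50 to 0.04), and -0.19 without LY500307 replicate 2. BRD9, the bromodomain subunit that defines ncBAF, was at 55.0 and 60.7 CPM in vehicle and 57.8 and 52.8 CPM in LY500307, and its log2 fold change was -0.06 ± 0.11, or 0.0022 without LY500307 replicate 2. Over the 19 tested members of SWI/SNF the median log2 fold change was -0.12, and over the 21 tested members outside it -0.22. Without LY500307 replicate 2 these medians were -0.0026 and -0.05.

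Outside SWI/SNF, both ISWI ATPases were negative. SMARCA5 (SNF2H), the ATPase of most ISWI complexes (GRCh37 chr4:144434855-144478639, plus strand), was at 391 and 399 CPM in vehicle and 354 and 299 CPM in LY500307. Both treated samples were below vehicle, and the fitted difference was -0.16 with treated replicate 1 alone and -0.40 with treated replicate 2 alone. With all samples the log2 fold change of SMARCA5 was -0.28 ± 0.12 (edgeR, unadjusted p = 0.046, adjusted p = 0.428), and the unadjusted DESeq2 p was 0.050. SMARCA1, its more abundant relative, was at 565 and 546 CPM in vehicle and 555 and 470 CPM in LY500307, with overlapping groups and a log2 fold change of -0.12 ± 0.12, which became 0.00099 without LY500307 replicate 2.

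All 9 CHD genes had a negative log2 fold change, with a median of -0.23, and in 6 of them the treated samples both lay under the vehicle pair (24.4% of all genes). Without LY500307 replicate 2 that median was -0.09, and CHD4 and CHD8 were above vehicle in replicate 1. CHD9 (GRCh37 chr16:53088903-53363062, plus strand) was at 225 and 223 CPM in vehicle and 197 and 158 CPM in LY500307. Its vehicle samples were nearly identical and its treated samples differed from each other. CHD9 had a log2 fold change of -0.33 ± 0.12 (edgeR, unadjusted p = 0.029, adjusted p = 0.422), and it was -0.18 without LY500307 replicate 2. CHD4 was at 676 and 685 CPM in vehicle and 698 and 613 CPM in LY500307, with replicate 1 above vehicle and replicate 2 below it, and its log2 fold change of -0.05 ± 0.11 became 0.0049 after correction for transcript length and 0.04 without LY500307 replicate 2. The lowest value among all members was that of CHD5, the neural NuRD ATPase, named here after its values were seen. It rested on 75 and 55 reads in vehicle and 62 and 46 reads in LY500307, with a log2 fold change of -0.47 ± 0.32, or -0.31 without LY500307 replicate 2.

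The INO80-type ATPases overlapped between groups. INO80, which slides nucleosomes and acts on H2A.Z, was at 77.5 and 72.7 CPM in vehicle and 80.6 and 68.6 CPM in LY500307. Its log2 fold change was -0.01 ± 0.12, and it was 0.03 when scaled by library totals alone and 0.11 without LY500307 replicate 2. EP400, the ATPase of the TIP60 complex, was at 249 and 241 CPM in vehicle and 246 and 210 CPM in LY500307, with a log2 fold change of -0.11 ± 0.11, or 0.0089 without LY500307 replicate 2. The highest value among all members was that of SMARCAL1, an annealing helicase of stalled replication forks, also named after its values were seen. It was at 24.7 and 23.8 CPM in vehicle and 27.3 and 32.5 CPM in LY500307, so both treated samples were higher. Its log2 fold change was 0.30 ± 0.14 (95% interval -0.02 to 0.62, edgeR unadjusted p = 0.061), or 0.17 without LY500307 replicate 2. The 6 tested ARID3, ARID4 and ARID5 genes, DNA-binding proteins that are not SWI/SNF subunits, were all negative, with a range of -0.31 to -0.13, and 3 of them had both LY500307 samples below vehicle (24.4% of all genes). Their median log2 difference from the vehicle mean was -0.06 in replicate 1 and -0.53 in replicate 2.

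Ratios per kilobase within a sample compare genes that take the same place in a complex, and were not tested. SMARCC1 to SMARCC2 was 0.996 and 0.903 in vehicle and 1.08 and 1.23 in LY500307, higher in both treated samples. SMARCA1 to SMARCA5 was 2.78 and 2.64 in vehicle and 3.02 and 3.03 in LY500307. The 2 treated values were nearly the same, although both genes were lower in replicate 2. DPF2 to DPF1, a ubiquitous and a neural-type BAF reader, was 7.29 and 7.38 in vehicle and 9.02 and 9.05 in LY500307. CHD4 to CHD3 was also higher in both treated samples, at 2.25 and 2.32 in vehicle and 2.36 and 2.67 in LY500307. By contrast, ARID1A to ARID1B was 10.9 in both vehicle samples and 12.8 and 10.8 in LY500307, so those groups overlapped. SMARCD1 to SMARCD2 (1.30 and 1.42 in vehicle, 1.30 and 1.40 in LY500307) and SMARCD1 to SMARCD3 overlapped too. The denominators SMARCC2 and SMARCA5 were themselves among the members lower at an unadjusted edgeR p below 0.05.

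Further subunits and remodelers were taken from a list of 72 genes, of which 71 were tested and ACTL6B failed the filter. Of these, 0 met both criteria, 7 were lower (5.5% of all genes) and 2 higher (6.09% of all genes) at an unadjusted p below 0.05, and 0 passed after edgeR's Benjamini-Hochberg adjustment. The median log2 fold change was -0.11, and -0.03 without LY500307 replicate 2. Both LY500307 samples lay below vehicle in 31 of the 71 genes (24.4% of all genes) and above it in 10 (24.2% of all genes). HELLS, a SNF2-type helicase needed for DNA methylation, was at 120 and 115 CPM in vehicle and 93.7 and 87.3 CPM in LY500307. Both treated samples of HELLS were lower by a similar amount, and its log2 fold change was -0.37 ± 0.10 (edgeR, unadjusted p = 0.005, adjusted p = 0.422), or -0.32 without LY500307 replicate 2. Next came 2 ISWI partners, CECR2 at -0.38 ± 0.11 (unadjusted p = 0.010) and BAZ1B at -0.37 ± 0.13 (unadjusted p = 0.022), which were at -0.27 and -0.22 without LY500307 replicate 2. All 9 ISWI partners were negative, with a median of -0.25, or -0.09 without LY500307 replicate 2, and 8 of the 9 had both LY500307 samples below vehicle (24.4% of all genes).

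The 3 partners with a positive fold change and the smallest p were ZNHIT1, MCRS1 and MBD3. ZNHIT1, a subunit of the SRCAP complex that deposits H2A.Z, was at 32.5 and 30.5 CPM in vehicle and 37.8 and 50.5 CPM in LY500307. Its log2 fold change was 0.49 ± 0.16 (edgeR, unadjusted p = 0.014, adjusted p = 0.422), or 0.27 without LY500307 replicate 2. MCRS1, an INO80 subunit, was at 44.3 and 38.9 CPM in vehicle and 47.9 and 65.2 CPM in LY500307, with a log2 fold change of 0.44 ± 0.16 (edgeR, unadjusted p = 0.026), or 0.21 without replicate 2. MBD3, the methyl-CpG-binding-domain subunit of NuRD, was at 0.24 ± 0.11 (unadjusted p = 0.058), or 0.13 without replicate 2. In the INO80, SRCAP and TIP60 group as a whole, 13 of 29 genes were positive and the median was -0.07, or 0.02 without replicate 2.

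Transcript length and base composition moved with the fold changes across genes. The members' transcripts were longer than those of all genes tested (median 5906 against 3315.5 bases), and their GC content was 50.6% against 48.6%. Across all 13782 genes with a length, which are not independent replicates and share the 4 libraries, Spearman's rho of the log2 fold change was -0.22 with length and 0.33 with GC content, and over the 40 members it was -0.35 and 0.24. Over the members, rho with length was -0.25 in LY500307 replicate 1 and -0.40 in replicate 2. Over all 13782 genes it was -0.16 in replicate 1 and -0.21 in replicate 2. When the trend with length was removed in each sample, the members' median became -0.12, with 30 of 40 negative and 2 (PHF10 and CHD9) lower at an unadjusted p below 0.05 (4.91% of all genes). When the trend with GC content was removed instead, the median was -0.17 and PHF10 met both criteria at a log2 fold change of -0.51 (3.93% of all genes met them). With that correction 3 members, PHF10, SMARCC2 and ARID1B, were lower at an unadjusted p below 0.05 (4.67% of all genes), with ARID1B at -0.30 (edgeR, unadjusted p = 0.031). CHD9, at -0.22 (edgeR, unadjusted p = 0.078), and SMARCA5, at -0.15 (edgeR, unadjusted p = 0.167), no longer passed. The part that length or composition plays in the lower levels of replicate 2 was not tested further.

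**Figure D4:**
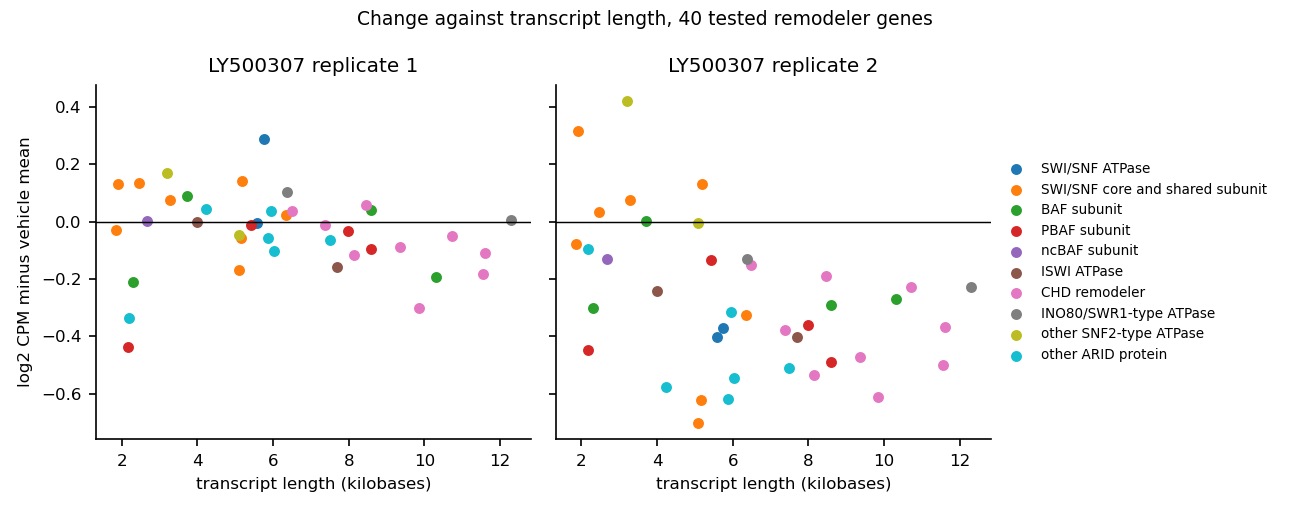
Log2 CPM of each LY500307 sample minus the vehicle mean (vertical axis) against transcript length in kilobases (horizontal axis) for the 40 tested remodeler genes, coloured by role. In replicate 1 the points scatter around 0 (rho -0.25). In replicate 2, 34 of the 40 genes lie below 0 (rho -0.40). They include shorter transcripts and every transcript longer than the members' median of 5906 bases.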

How the data were processed

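RNA of 2 vehicle and 2 LY500307 samples was sequenced as single-end reads. The labels name a total RNA kit and the study's methods a stranded mRNA kit, and which was used is not settled here. The submitters' processing notes name TopHat2 2.0.8b, HTSeq and hg19, and the authors deposited raw counts per gene symbol without normalization. Whether counting used strand is not given in the sources used here, so genes that overlap on opposite strands are uncertain. HTSeq's tallies of reads outside genes or ambiguous between them (26.2 to 31.5% of reads on genes plus these tallies) were left out, and reads that aligned to several places are in no gene's count.

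Group differences were fitted by edgeR 4.0.16 (under R 4.3.3) with its quasi-likelihood test, after filterByExpr and TMM scaling, without a replicate block, and p-values were adjusted by Benjamini-Hochberg over all genes tested. The standard error is the fold change divided by the square root of F. CPM values use TMM-scaled library sizes. DESeq2 1.42.0, used by the study, its size factors, library totals alone, other count filters, a replicate block, length and GC corrections (loess, span 0.3, on log2 CPM with prior count 2) and omission of each sample were alternatives. The crossed block was added after seeing the data. Length, GC content and gene coordinates came from the canonical transcripts of a GRCh37 annotation, which matched 91.8% of symbols. The scripts were tested on simulated data.

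The members and lists were chosen with earlier results of these data known. Members named are those at an unadjusted p below 0.05, 10 ATPases and defining subunits, the 3 highest and 3 lowest per kilobase, and those that failed the filter. Partners named are the 3 with the smallest p in each direction. Others were named after their values were seen.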

Additional observations from a re-analysis of the deposited data

How the results depend on the processing

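Among the members, 0 met both criteria in the analysis reported above (669 of all 14473 genes did). With the GC correction 1 member, PHF10, met them (569 of all genes). The same held with the replicate block added to that correction (571 of all genes). Leaving out 1 sample at a time gave 0 to 7 members, 0 to 7 partners, 0 to 25 members lower and 0 to 2 higher at an unadjusted p below 0.05, and medians of -0.31 to -0.018. The 4 members lower at an unadjusted p below 0.05 became 2 with the length correction and 11 with the crossed replicate block. They became 2 with the replicate block and either correction. Of all 14473 genes, 796 were lower in the analysis reported above and 711 with the length correction. There were 679 with the replicate block and either correction, and 1207 with the crossed block. The crossed block was tried after same-numbered samples correlated at -0.23 over the 7237 genes with the highest mean CPM. It put 381 genes below an adjusted p of 0.05. With the replicate block alone, 6 members were lower (799 of all 14473 genes) and 0 met both criteria (717 of all genes). SMARCA5 then moved to an unadjusted edgeR p of 0.097. The labels do not say what a shared replicate number marks. Deviations of same-numbered samples correlated at -0.07 over all genes tested and 0.24 over the members, and the analysis reported above has no block. With library totals alone, 1 partner met both criteria (694 of all 14473 genes did).

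The sign turned for SMARCA2 with the replicate block and length correction (0.0088), for CHD4 with the length correction (0.0049) and also the block (0.0036), and for INO80 with library totals (0.029), the length correction (0.0499) and the block with it (0.048). With 1 sample left out, the fold changes ranged from -0.48 to 0.52 for SMARCA2, -0.29 to 0.042 for ARID1A, -0.13 to 0.0085 for BRD9, -0.15 to 0.038 for CHD4, -0.13 to 0.11 for INO80, -0.225 to 0.0089 for EP400 and -0.24 to 0.00099 for SMARCA1. The cause of these turns was not tested. PHF10 stayed negative in every setting (-0.51 to -0.38). Of the 4 members below 0.05, SMARCC2, CHD9 and SMARCA5 lost that side of the threshold when either vehicle sample was left out, and PHF10 when vehicle replicate 2 was. Depth limits SMARCA2 and CHD5, at 17 to 75 reads per sample, and the 2 members that failed the filter.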
